A study of Oryctolagus cuniculus with 17 samples.

Results

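The comparison examined here was that of lungs kept in hyperoxia with lungs kept in normoxia on postnatal day 5, and it used 5 of the 17 libraries of the study: 2 libraries of hyperoxia (HT5, 95% O2) and 3 of normoxia (NT5, 21% O2). All animals were New Zealand White rabbits (Oryctolagus cuniculus) born preterm by caesarean section at day 28 of gestation, nursed in incubators and given milk replacer by tube, so prematurity, incubator care and feeding were common to both groups. Total homogenate of the right lung was profiled by stranded polyA RNA sequencing, and the other 12 libraries came from days 3 and 7 of the same 2 exposures. Libraries were chosen by their column names, and the response was described across all 12628 loci that passed a filter on low counts, of 13313 loci in the table. A locus is 1 identifier of the deposited count table, and 434 loci carried several annotated genes that share the same counts.

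A concentration of oxygen far above that of air raises the production of reactive oxygen species in the lung, and cells answer with the antioxidant program of the transcription factor NRF2 and, where DNA is damaged, with that of p53. The preterm lung is still forming alveoli at this age, a process in which capillaries, elastic fibres and the alveolar epithelium grow together. Prolonged hyperoxia in preterm rabbits is used as a model of bronchopulmonary dysplasia, the chronic lung disease of preterm infants.

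Total counts ranged from 13123731 to 18111086 over the 17 libraries and were 13123731 and 16026709 in HT5 and 15270534, 14190322 and 17349754 in NT5. The surfactant protein gene SFTPC, a defining marker of alveolar type 2 cells, was among the abundant loci in each of the 5 libraries (13460 and 4424 CPM in HT5 and 10406, 5927 and 8833 CPM in NT5). Expression levels are given below as CPM, the counts of a locus scaled to the total of its library with TMM factors, and values of HT5 are in the order replicate 1, replicate 2, those of NT5 in the order replicate 1, 2, 3. Nothing in the labels says which litter a library came from, so p-values measured only the spread between these samples. The spread was shared over all 6 groups of the study, because HT5 had 2 libraries.

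Hyperoxia was accompanied on day 5 by similar numbers of upregulated and downregulated loci. At the thresholds of the study (adjusted p under 0.01 and log2FC beyond 2 in either direction) 197 of 12628 loci were called differentially expressed (1.56%), 97 upregulated and 100 downregulated. With no minimum on the fold change 2005 loci passed, of which 1015 rose (8.04%) and 990 fell (7.84%). Many of these changes were moderate: 598 of the loci that rose and 434 of those that fell changed by less than 1 on the log2 scale. The median log2FC over all loci was -0.0347. The shares of 8.04% and 7.84% are the background for the member counts of each gene list below. All values came from edgeR's quasi-likelihood test with Benjamini-Hochberg adjustment. Just inside the fold threshold lay 53 upregulated and 74 downregulated loci with log2FC under 3 in size, and just outside it 28 loci with an adjusted p under 0.01 and a log2FC of 1.9 to 2 in size.

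**Figure D1:**
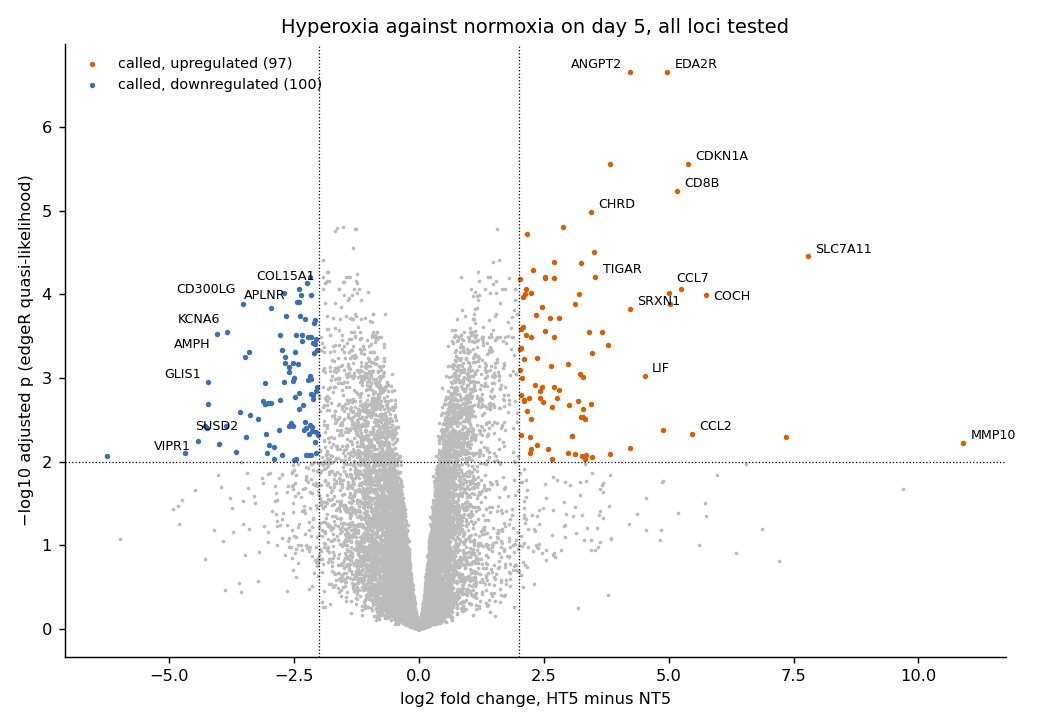
Each point is 1 of 12628 loci, with log2FC of HT5 against NT5 on the horizontal axis and the negative log10 of the adjusted p on the vertical axis; dotted lines mark the thresholds. The 97 upregulated loci reached higher log2FC and lower adjusted p than the 100 downregulated loci, with EDA2R and ANGPT2 at the top.

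These counts moved with the libraries in the fit. Fitted on the 5 libraries of day 5 alone, edgeR called 11 loci, 7 upregulated and 4 downregulated. The upregulated loci in that fit were ANGPT2, EDA2R, CDKN1A, CD8B, CCL7, SELP and SLCO1A2, and the downregulated ones SEMA3G, GNG11, RYR3 and TMEM100, named after their values were seen. In the fit without HT5 replicate 2 the count fell to 45, and without HT5 replicate 1 it was 360, each with 1 HT5 library assumed to vary like the other groups. Of the 97 upregulated loci 47 passed without HT5 replicate 2 and 89 without HT5 replicate 1, and of the 100 downregulated loci 16 and 73.

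The 2 HT5 libraries deviated from normoxia to different extents. Over the 97 upregulated loci, the median deviation from the NT5 mean was 2.13 log2 CPM in replicate 1 and 3.09 in replicate 2. Over the 100 downregulated loci it was -2.05 and -2.7. Replicate 2 lay farther from the NT5 mean than replicate 1 at 83 of the 97 and at 83 of the 100 loci. Both HT5 libraries lay outside the range of the NT5 libraries at every one of the 197 called loci, which the choice of these loci on the same libraries largely fixes. Over all loci 25.6% had both HT5 libraries above and 29.9% both below that range. Between the 2 HT5 libraries 11.3% of loci differed by more than 1 log2 CPM, against 4.95% to 8.65% in pairs of NT5 libraries and 5.98% to 12.8% in pairs of the day 7 hyperoxia libraries.

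**Figure D2:**
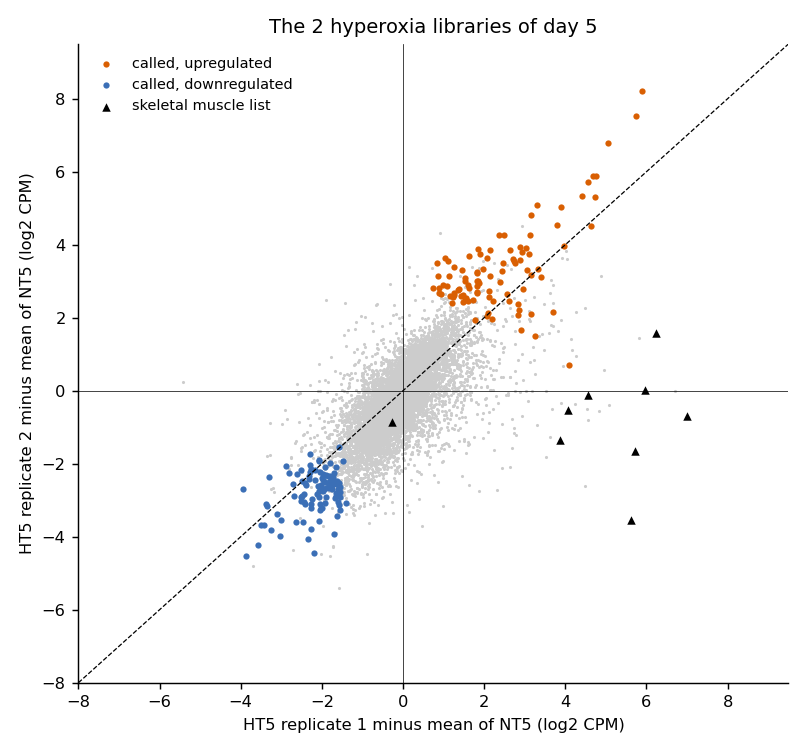
Each point is 1 locus, placed by its deviation from the NT5 mean in HT5 replicate 1 (horizontal axis) and HT5 replicate 2 (vertical axis), in log2 CPM, with the line of equality dashed. Called loci lie mostly on the side of larger deviation in replicate 2, and the skeletal muscle list (triangles) is high in replicate 1 alone, except for the locus shared by ZNF48 and MYLPF.

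Genes of skeletal muscle were detected at high level in 1 of the 5 libraries of day 5, HT5 replicate 1. ACTA1, which encodes skeletal alpha-actin, measured 150 and 2.31 CPM in HT5 and 2.66, 1.2 and 3.72 CPM in NT5. The myosin heavy chain gene MYH8 was at 108 and 0.0594 CPM in HT5 and 1.40, 1.2 and 5.03 CPM in NT5. MYL1, ATP2A1, MYH1, CKM and TNNT3, genes of muscle contraction and energy supply, were also among the 10 loci with the largest difference between the 2 HT5 libraries, together with the cardiac and slow muscle myosin MYH7. None of the 9 tested members of the skeletal muscle list passed, and the part of muscle content in other values of this library was not tested. The 8 members at loci of 1 gene summed to 406 CPM in HT5 replicate 1 and 5.64 CPM in replicate 2, against 8.78, 7.84 and 13.8 CPM in NT5. Among the other 12 libraries HT3 replicate 2, of day 3 hyperoxia, reached 498 CPM and HT3 replicate 3 62.6 CPM, and the remaining 10 lay between 4.19 and 11.1 CPM. The other loci with such a difference were CXCL9, an interferon-induced chemokine that measured 11.9 and 0.237 CPM in HT5 and 30.2, 0.847 and 0.343 CPM in NT5, and a locus named ARCN1, at 0 and 6.41 CPM in HT5 and 4.86, 3.95 and 8.17 CPM in NT5. The latter is the weaker of 2 loci with that name. The other, ARCN1/PHLDB1, measured 597 and 516 CPM in HT5 and 477, 477 and 474 CPM in NT5.

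Macrophage genes were high in 1 library of each group. Over the 14 tested markers the mean deviation from the NT5 mean was 1.10 log2 CPM in NT5 replicate 1 and 1.05 in HT5 replicate 1, against 0.133 in HT5 replicate 2 and -0.467 and -0.636 in the other NT5 libraries. The 13 markers at loci of 1 gene summed to 1744 and 914 CPM in HT5 and 1660, 596 and 516 CPM in NT5. The complement gene C1QC, for example, measured 37.9 and 24.6 CPM in HT5 and 91.9, 13.1 and 10.9 CPM in NT5. The same pair of libraries was highest for the summed alveolar type 2 markers, with 37634 and 14482 CPM in HT5 and 28643, 14762 and 18186 CPM in NT5. Because the tissue was a homogenate, a smaller number of cells of a type and less RNA per cell cannot be told apart in any of the values below.

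Among called loci averaging at least 1 log2 CPM, those with the largest rise included genes of cystine import, cell cycle arrest, chemotaxis and vessel destabilization. SLC7A11, the cystine importer that feeds glutathione synthesis, measured 32 and 160 CPM in HT5 and 0.599, 0.282 and 0.4 CPM in NT5, and was upregulated (log2FC 7.78 ± 0.77 (SE), adjusted p = 3.48e-05). CDKN1A, the p53-induced inhibitor of cyclin-dependent kinases, measured 739 and 1689 CPM in HT5 and 37.8, 25.6 and 24 CPM in NT5 (log2FC 5.38 ± 0.39 (SE), adjusted p = 2.76e-06). The 2 groups were well apart at both genes, and replicate 2 was the higher HT5 library at each. EDA2R, a receptor of the tumor necrosis factor family, measured 127 and 243 CPM in HT5 and 5.19, 6.0 and 6.40 CPM in NT5 (log2FC 4.97 ± 0.29 (SE), adjusted p = 2.17e-07). ANGPT2, the antagonist ligand of the TEK receptor on endothelium, reached 555 and 932 CPM in HT5 and 37.4, 45.7 and 36.2 CPM in NT5 (log2FC 4.23 ± 0.24 (SE), adjusted p = 2.17e-07). These 2 genes had the lowest adjusted p of all loci. On the OryCun2.0 assembly SLC7A11 lies at chr15:26382214-26463145, CDKN1A at chr12:26615148-26621177, EDA2R at chrX:45563827-45581103 and ANGPT2 on the unplaced scaffold GL018713 at 617878-676188.

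Secreted factors were also among the largest rises. CCL2, the main chemoattractant of monocytes, measured 128 and 419 CPM in HT5 and 14.9, 2.68 and 1.2 CPM in NT5 (log2FC 5.46 ± 1.23 (SE), adjusted p = 0.00463). Its neighbour CCL7 measured 96.1 and 142 CPM in HT5 and 5.45, 2.26 and 3.43 CPM in NT5 (log2FC 5.00 ± 0.60 (SE), adjusted p = 9.61e-05). NT5 replicate 1 was the highest NT5 library for both chemokines, but remained below both HT5 libraries. CCL2 (chr19:23720218-23722039) and CCL7 are adjacent on the chromosome. LIF, a cytokine of the interleukin 6 family, was at 23.7 and 82.5 CPM in HT5 and 2.59, 2.33 and 2.00 CPM in NT5 (log2FC 4.53 ± 0.78 (SE), adjusted p = 0.000936). MMP10, a stromelysin, had 91 and 398 counts in HT5 and 0 counts in the 3 NT5 libraries; against a floor of 3 counts in each NT5 library its mean level was at least 78.4-fold higher in HT5 (adjusted p = 0.00592). MMP10 did not pass without HT5 replicate 2 or without any one of the NT5 libraries, CCL2 did not pass without HT5 replicate 2, NT5 replicate 2 or NT5 replicate 3, and LIF did not pass without HT5 replicate 2.

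The remaining large rises were SRXN1 (log2FC 4.23 ± 0.54 (SE), adjusted p = 0.000148), which encodes sulfiredoxin, COCH (log2FC 5.74 ± 0.70 (SE), adjusted p = 0.000101), an extracellular protein best known from the inner ear, and 2 loci named in the files by the human homolog only. Of these, CD8B measured 8.33 and 7.66 CPM in HT5 and 0.2, 0.282 and 0.171 CPM in NT5 (log2FC 5.16 ± 0.41 (SE), adjusted p = 5.72e-06), and was the single large riser at which the 2 HT5 libraries were nearly equal. The T cell gene CD8A, the next locus on the chromosome, did not pass (log2FC -1.23, adjusted p = 0.105) and was lower in both HT5 libraries than in each NT5 library. The locus named RNASE8, a ribonuclease of the secretory family, measured 26.5 and 59.2 CPM in HT5 and 2.00, 0.706 and 0.686 CPM in NT5 (log2FC 5.25 ± 0.62 (SE), adjusted p = 8.7e-05).

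**Figure D3:**
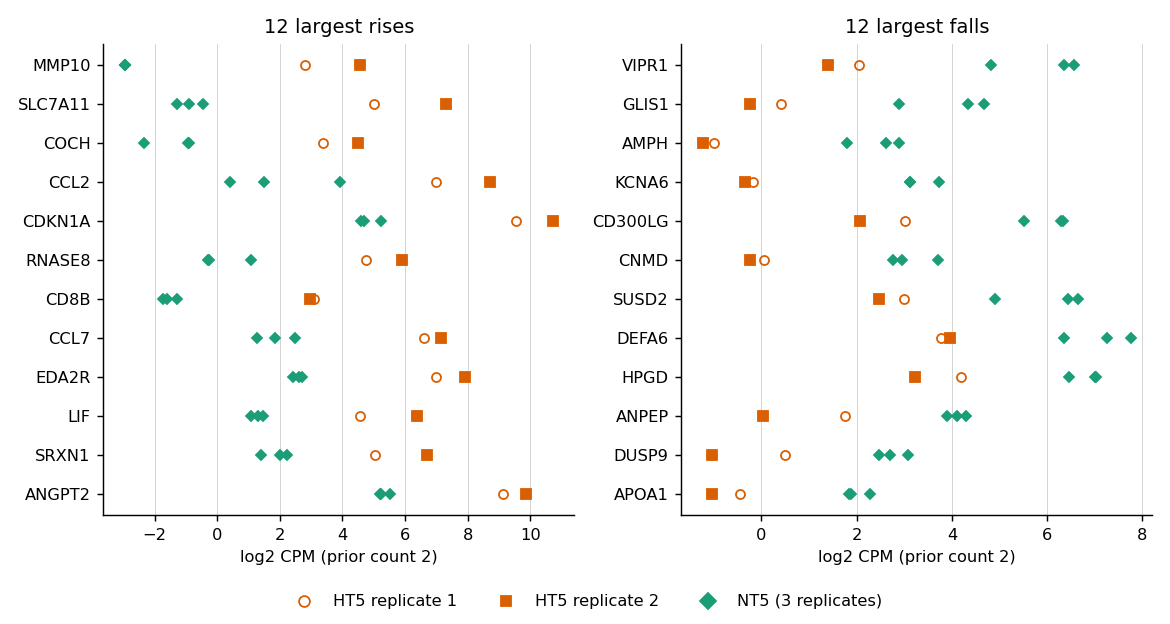
Level in log2 CPM of the 12 named loci with the largest rise (left) and the 12 with the largest fall (right) in each of the 5 libraries of day 5. They were chosen among called loci averaging at least 1 log2 CPM. That both HT5 libraries lie on 1 side of all 3 NT5 libraries was a condition of the choice.

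Among the 12 largest falls of called loci averaging at least 1 log2 CPM were receptors, enzymes and a channel. VIPR1, the receptor of vasoactive intestinal peptide, measured 3.98 and 2.49 CPM in HT5 and 28.3, 81.2 and 94.5 CPM in NT5 (log2FC -4.41 ± 1.03 (SE), adjusted p = 0.00572). CD300LG, an endothelial glycoprotein of capillaries, measured 7.96 and 4.04 CPM in HT5 and 45.6, 78.0 and 80.0 CPM in NT5 (log2FC -3.51 ± 0.44 (SE), adjusted p = 0.00013). HPGD, which inactivates prostaglandins, measured 18.2 and 9.20 CPM in HT5 and 87.8, 128 and 130 CPM in NT5 (log2FC -3.08 ± 0.55 (SE), adjusted p = 0.00116). At these 3 genes HT5 replicate 2 was the lower of the HT5 libraries, and the lowest NT5 library remained several times above HT5 replicate 1. SUSD2 fell from 87.1, 29.7 and 101 CPM in NT5 to 7.81 and 5.40 CPM in HT5 (log2FC -3.46, adjusted p = 0.00505), and GLIS1, a zinc finger factor, from 7.32, 20.1 and 25.6 CPM to 1.2 and 0.712 CPM (log2FC -4.22, adjusted p = 0.0011). VIPR1 lies at chr9:1731488-1763191, CD300LG at chr19:44263125-44276609 and HPGD at chr2:52453983-52494219.

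The other 7 large fallers were AMPH, KCNA6, CNMD, ANPEP, DUSP9, APOA1 and a locus of 2 defensin genes, with log2FC from -4.03 to -3.02. CNMD encodes chondromodulin, an inhibitor of vessel growth, and measured 0.901 and 0.712 CPM in HT5 and 6.65, 12.9 and 7.6 CPM in NT5. The defensin locus is the most abundant of those named by the human homolog DEFA6, holds 2 rabbit genes of that family that share their counts, and measured 13.6 and 15.4 CPM in HT5 and 81.4, 153 and 217 CPM in NT5. AMPH, KCNA6, APOA1 and CNMD were at or below about 1 CPM in both HT5 libraries. Of the 12 largest fallers, CD300LG alone passed without HT5 replicate 2, and VIPR1, SUSD2 and DEFA6 did not pass without HT5 replicate 1. VIPR1 was also lost without NT5 replicate 2 or 3, and SUSD2 without NT5 replicate 1 or 3.

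NRF2 target genes rose in part. Of 21 tested members 9 rose and none fell, with a median log2FC of 0.978. Beside SLC7A11 and SRXN1, the quinone reductase gene NQO1 measured 210 and 879 CPM in HT5 and 72.0, 56.7 and 77.1 CPM in NT5 (log2FC 2.99 ± 0.49 (SE), adjusted p = 0.000672). GCLM and GCLC, the subunits of the enzyme that starts glutathione synthesis, had log2FC 2.47 and 1.68, and the thioredoxin reductase TXNRD1 log2FC 2.29 (adjusted p = 5.13e-05). SQSTM1, an autophagy receptor, FTL, the ferritin light chain, and GSR, glutathione reductase, were the other members that rose. HMOX1, the heme oxygenase, did not pass (log2FC 0.76, adjusted p = 0.18), nor did the pentose phosphate genes PGD and TKT. FTL measured 3273 and 5406 CPM in HT5 and 1957, 660 and 794 CPM in NT5, with NT5 replicate 1, the library rich in macrophage transcripts, above the other NT5 libraries; the part of macrophage content in this value was not tested. With HT5 replicate 2 excluded, the count of members that rose was 5.

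The p53 target genes formed the list with the largest share of changed members. Of 21 tested members 17 rose and none fell, beside 8.04% and 7.84% of all loci, and the median log2FC was 2.14. Both HT5 libraries lay above all NT5 libraries at 19 of the 21, beside 25.6% of all loci. MDM2, the ubiquitin ligase that limits p53, measured 510 and 1379 CPM in HT5 and 123, 154 and 160 CPM in NT5 (log2FC 2.7 ± 0.30 (SE), adjusted p = 6.28e-05). PHLDA3, an inhibitor of AKT, measured 75.2 and 156 CPM in HT5 and 10, 8.76 and 11.4 CPM in NT5 (log2FC 3.52 ± 0.34 (SE), adjusted p = 3.08e-05). AEN, a nuclease, shares its locus with ISG20, which measured 86.4 and 189 CPM in HT5 and 9.78, 10.2 and 9.03 CPM in NT5 (log2FC 3.83 ± 0.28 (SE), adjusted p = 2.76e-06). In each of these replicate 2 was the higher HT5 library. A second, weakly expressed locus named MDM2 did not enter the list.

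Members with roles in metabolism, repair and growth arrest rose as well. They included TIGAR (log2FC 3.53, adjusted p = 6.19e-05), a regulator of glycolytic flux, SESN2 (log2FC 3.24, adjusted p = 4.22e-05), a sestrin, XPC (log2FC 2.14, adjusted p = 8.7e-05) and DDB2 (log2FC 1.56, adjusted p = 1.64e-05), which recognize damaged DNA, and RRM2B (log2FC 2.10, adjusted p = 0.00181), a subunit of ribonucleotide reductase. The pro-apoptotic genes BAX (log2FC 1.54, adjusted p = 6.87e-05) and BBC3 (log2FC 1.13, adjusted p = 0.0028) rose, as did GADD45A (log2FC 2.10, adjusted p = 0.00059), a growth arrest gene. FAS, TP53INP1, PLK2 and SESN1 did not pass, with log2FC of 1.0, 0.44, 0.02 and -0.14. When HT5 replicate 2 was left out, the count was 11, and RRM2B (log2FC 0.70, adjusted p = 0.137), BBC3 (0.71, adjusted p = 0.0997) and GADD45A (1.26, adjusted p = 0.0258) did not pass.

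Genes of amino acid supply and of the charging of transfer RNA rose in part, as did those of ribosome assembly. Of 19 tested genes of the ATF4 stress response 9 rose and 1 fell (median log2FC 0.884), beside 8.04% and 7.84% of all loci. CHAC1, a glutathione-degrading enzyme, rose (log2FC 2.71 ± 0.49 (SE), adjusted p = 0.00129), as did the cystathionine lyase CTH (log2FC 2.63 ± 0.35 (SE), adjusted p = 0.000194), the stress factor ATF3 (log2FC 2.43 ± 0.45 (SE), adjusted p = 0.00141) and the mitochondrial folate enzyme MTHFD2 (log2FC 2.05 ± 0.31 (SE), adjusted p = 0.000433). ASNS, asparagine synthetase, measured 36.6 and 27.4 CPM in HT5 and 14, 6.85 and 10.6 CPM in NT5 (log2FC 1.61, adjusted p = 0.000927). The member that fell was VLDLR (log2FC -0.68, adjusted p = 0.00967), a lipoprotein receptor. DDIT3, the pro-apoptotic partner of this response, did not pass and was lower in HT5 (2.40 and 1.78 CPM) than in NT5 (3.86, 8.69 and 6.86 CPM).

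Of 18 tested cytosolic aminoacyl-tRNA synthetases 11 rose and none fell, with a median log2FC of 0.833. AARS1, the alanine enzyme, had the largest log2FC and measured 345 and 770 CPM in HT5 and 150, 137 and 92.8 CPM in NT5 (log2FC 2.14 ± 0.30 (SE), adjusted p = 0.000306). YARS1 (log2FC 1.55, adjusted p = 0.00017), IARS1 (log2FC 1.18, adjusted p = 5.4e-05) and GARS1 (log2FC 1.13, adjusted p = 0.000221), for tyrosine, isoleucine and glycine, were among the others that rose. The lysine and glutamine enzymes KARS1 and QARS1 had log2FC of 0.13 and -0.26 and did not pass.

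Of 30 tested ribosome biogenesis genes 23 rose and none fell, with a median log2FC of 1.08. RRP12, a factor of subunit export, measured 165 and 263 CPM in HT5 and 64.5, 54.1 and 50.1 CPM in NT5 (log2FC 1.93 ± 0.23 (SE), adjusted p = 8.7e-05). GNL3, known as nucleostemin, measured 156 and 243 CPM in HT5 and 74.8, 66.7 and 63.2 CPM in NT5 (log2FC 1.55 ± 0.19 (SE), adjusted p = 9.61e-05), and UTP20, of the small subunit processome, 174 and 216 CPM in HT5 and 69.3, 72.6 and 66.3 CPM in NT5 (log2FC 1.49 ± 0.15 (SE), adjusted p = 4.09e-05). None of the 23 exceeded a log2FC of 2, so none was called at the thresholds of the study. The loci that NAT10, FBL and PES1 share with a second gene did not pass, and neither did NCL (log2FC 0.26, adjusted p = 0.128), the nucleolin gene. RPP25, a subunit of ribonuclease P, was below 1 CPM in each of the 5 libraries and did not pass (log2FC 0.51, adjusted p = 0.538). With HT5 replicate 2 left out, 4 members of the ATF4 list, 5 synthetases and 6 ribosome biogenesis genes rose, and VLDLR did not pass, as it did not without any one of the NT5 libraries.

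Chaperone and glycolysis genes passed in few cases, at shares near those over all loci (8.04% rose and 7.84% fell). Of 21 tested chaperones of the endoplasmic reticulum and heat shock response 2 rose, HSPD1 (log2FC 0.94, adjusted p = 0.00059) of the mitochondrial matrix and HSPH1 (log2FC 0.60, adjusted p = 0.00786), and 1 fell, HSPB1 (log2FC -0.88, adjusted p = 0.00818). HSPA5, the main chaperone of the endoplasmic reticulum, had a log2FC of 0.26 (adjusted p = 0.254). Of 17 tested glycolysis genes PFKFB3 (log2FC 1.70, adjusted p = 0.00586) and GAPDH (log2FC 1.01, adjusted p = 0.00923) rose and PFKL (log2FC -0.73, adjusted p = 0.00824) fell. HSPB1 and PFKL did not pass when any 1 of the 5 libraries was left out, and without HT5 replicate 2 none of these genes passed. Without NT5 replicate 2 or 3 HSPH1, PFKFB3 and GAPDH did not pass either, and HSPH1 was also lost without NT5 replicate 1 and GAPDH without HT5 replicate 1. None of the 19 tested cholesterol synthesis genes passed in either direction, and their median log2FC was 0.0347.

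Of 27 tested cytokines and chemokines 4 rose and none fell, beside 8.04% and 7.84% of all loci. The 4 were CCL2, CCL7, LIF and IL1B. IL1B, interleukin 1 beta, measured 98.7 and 41.6 CPM in HT5 and 19.3, 9.82 and 11.9 CPM in NT5 (log2FC 2.36 ± 0.56 (SE), adjusted p = 0.00624), with HT5 replicate 1 higher than replicate 2. CXCL8, a neutrophil chemoattractant, measured 244 and 199 CPM in HT5 and 53.3, 8.83 and 8.63 CPM in NT5 and did not pass (log2FC 3.23, adjusted p = 0.025), and IL6 measured 4.58 and 2.31 CPM in HT5 and 0.532, 0.212 and 0.114 CPM in NT5 and did not pass either (log2FC 3.57, adjusted p = 0.0616). NT5 replicate 1 was the highest NT5 library at each of these 3 genes. The mean deviation of the list from the NT5 mean was 1.93 log2 CPM in HT5 replicate 1, 1.04 in HT5 replicate 2 and 1.04 in NT5 replicate 1, against -0.45 and -0.588 in the other NT5 libraries. HT5 replicate 1 and NT5 replicate 1 were also the libraries highest for macrophage markers, and the part of macrophage content in the cytokine values was not tested. The number of cytokines that rose was 1 without HT5 replicate 2, 2 without NT5 replicate 2 or without NT5 replicate 3, and 6 without NT5 replicate 1.

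Genes of the NF-kB feedback loop and of leukocyte adhesion rose in part, 6 of 18 tested with none falling, beside 8.04% and 7.84% of all loci. SELP, the P-selectin of activated endothelium and platelets, measured 30.9 and 25.3 CPM in HT5 and 3.59, 2.33 and 2.69 CPM in NT5 (log2FC 3.29 ± 0.57 (SE), adjusted p = 0.000969). BIRC3, an NF-kB target that inhibits apoptosis, measured 178 and 606 CPM in HT5 and 80.5, 23.4 and 16.7 CPM in NT5 (log2FC 3.29 ± 0.68 (SE), adjusted p = 0.00289). NFKBIZ (log2FC 2.03, adjusted p = 0.000808), BCL3 (log2FC 1.57, adjusted p = 0.00952), NFKB1 (log2FC 0.87, adjusted p = 0.000336) and ICAM1 (log2FC 0.99, adjusted p = 0.00255) were the other members that rose. SELE, the E-selectin gene, measured 1.28 and 1.07 CPM in HT5 and 0, 0.424 and 1.14 CPM in NT5 and did not pass. The number that rose was 2 without HT5 replicate 2 and 3 without NT5 replicate 2 or without NT5 replicate 3. None of 24 interferon-stimulated genes passed, with a median log2FC of 0.357; ISG15 measured 44.7 and 44.2 CPM in HT5 and 27.1, 34.1 and 31.8 CPM in NT5.

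Among the lists of leukocyte markers, which do not hold CD8B, 1 locus passed. Among 14 tested macrophage markers 1 locus rose, a share near the 8.04% of all loci. It holds CD68 together with EIF4A1 and other genes (log2FC 0.85, adjusted p = 0.00612), so its counts cannot be credited to CD68. MRC1 measured 230 and 64.5 CPM in HT5 and 272, 164 and 127 CPM in NT5 (log2FC -0.35, adjusted p = 0.624), and the scavenger receptor gene CD163 36.9 and 13.3 CPM in HT5 and 9.38, 4.17 and 3.89 CPM in NT5 (log2FC 2.11, adjusted p = 0.0121). The number of macrophage markers that rose was 4 without NT5 replicate 1 and 0 without any other single library. None of 11 neutrophil and none of 14 lymphocyte markers passed, with S100A8 at 346 and 210 CPM in HT5 and 226, 43.9 and 155 CPM in NT5 and CD3E at 3.75 and 1.25 CPM in HT5 and 7.65, 2.05 and 1.49 CPM in NT5. IL1R2, the decoy receptor of interleukin 1, measured 38 and 38.7 CPM in HT5 and 22.3, 4.38 and 7.49 CPM in NT5 and did not pass (log2FC 1.75, adjusted p = 0.0384).

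At all 22 tested mitosis genes both HT5 libraries lay below the 3 NT5 libraries, as at 29.9% of all loci, and the median log2FC was -1.42. Of these 2 fell, a share near the 7.84% of all loci: NUSAP1 (log2FC -1.31 ± 0.32 (SE), adjusted p = 0.00709), a spindle protein, and the locus that CCNA2 shares with BBS7 (log2FC -0.91 ± 0.20 (SE), adjusted p = 0.00434). MKI67, the proliferation antigen Ki-67, measured 103 and 31.2 CPM in HT5 and 226, 207 and 163 CPM in NT5 (log2FC -1.57, adjusted p = 0.0486), and TOP2A, a topoisomerase, 104 and 33.7 CPM in HT5 and 187, 186 and 185 CPM in NT5 (log2FC -1.43, adjusted p = 0.0691). The mean deviation of the list from the NT5 mean was -0.894 log2 CPM in HT5 replicate 1 and -2.22 in replicate 2. None of 21 S phase genes passed (median log2FC -0.766, both HT5 libraries below NT5 at 13 and above at 1, beside 29.9% and 25.6% of all loci), with MCM2 at 64.4 and 33 CPM in HT5 and 96.2, 88.6 and 76.1 CPM in NT5 and PCNA at 137 and 141 CPM in HT5 and 136, 134 and 139 CPM in NT5. The number of mitosis genes that fell was 13 with DESeq2, 9 without HT5 replicate 1, 1 without NT5 replicate 1, and 0 without HT5 replicate 2, NT5 replicate 2 or NT5 replicate 3.

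The vascular growth factor system changed on the side of ligands and of receptors. Of 17 tested members 2 rose and 10 fell, beside 8.04% and 7.84% of all loci. The agonist ligand ANGPT1 measured 41.9 and 39.0 CPM in HT5 and 90.1, 146 and 155 CPM in NT5 (log2FC -1.69 ± 0.27 (SE), adjusted p = 0.000631), while its antagonist ANGPT2 rose as given above. VEGFA, the main endothelial growth factor, measured 621 and 318 CPM in HT5 and 1341, 1932 and 1784 CPM in NT5 (log2FC -1.84 ± 0.25 (SE), adjusted p = 0.000258). The lymphatic growth factor gene VEGFD, which shares its locus with PIR, measured 17.9 and 14.1 CPM in HT5 and 44.5, 56.4 and 61.5 CPM in NT5 (log2FC -1.76 ± 0.31 (SE), adjusted p = 0.00106). Placental growth factor, PGF, rose (log2FC 1.70 ± 0.41 (SE), adjusted p = 0.00647).

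Receptors of these ligands fell as well. KDR, the principal VEGF receptor, measured 226 and 146 CPM in HT5 and 485, 711 and 672 CPM in NT5 (log2FC -1.74 ± 0.30 (SE), adjusted p = 0.000936), and TEK, the angiopoietin receptor, 158 and 97.3 CPM in HT5 and 323, 443 and 394 CPM in NT5 (log2FC -1.60 ± 0.24 (SE), adjusted p = 0.000402). TIE1 (log2FC -1.64, adjusted p = 1.6e-05), FLT4 (log2FC -1.30, adjusted p = 8.7e-05), NRP1 (log2FC -0.74, adjusted p = 0.00145) and the phosphatase PTPRB (log2FC -1.54, adjusted p = 0.00335) were the other falls apart from APLNR. APLNR, the apelin receptor, was the member with the largest fall and measured 27.2 and 12.4 CPM in HT5 and 136, 189 and 133 CPM in NT5 (log2FC -2.95 ± 0.38 (SE), adjusted p = 0.000144). Its ligand APLN did not pass (log2FC 0.95, adjusted p = 0.162), nor did FLT1, the decoy VEGF receptor (log2FC 0.94, adjusted p = 0.0175). Without HT5 replicate 2 the number that fell was 4, and PGF did not pass in that fit or without any one of the NT5 libraries.

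Endothelial markers fell in part. Of 16 tested 9 fell and 1 rose, beside 7.84% and 8.04% of all loci, and the median log2FC was -1.2. CDH5, the cadherin of endothelial junctions, measured 202 and 225 CPM in HT5 and 527, 652 and 531 CPM in NT5 (log2FC -1.42 ± 0.16 (SE), adjusted p = 6.19e-05), and the transcription factor gene ERG 54.7 and 57.6 CPM in HT5 and 126, 166 and 134 CPM in NT5 (log2FC -1.34 ± 0.16 (SE), adjusted p = 0.000101). PECAM1, a pan-endothelial adhesion gene, measured 458 and 508 CPM in HT5 and 553, 553 and 519 CPM in NT5 and did not pass (log2FC -0.17, adjusted p = 0.643). VWF, von Willebrand factor, was the marker that rose, with 230 and 254 CPM in HT5 and 102, 137 and 93.2 CPM in NT5 (log2FC 1.13 ± 0.28 (SE), adjusted p = 0.00798). EDNRB, expressed in aerocyte capillaries, measured 190 and 111 CPM in HT5 and 457, 497 and 708 CPM in NT5 (log2FC -1.88 ± 0.42 (SE), adjusted p = 0.00443), and CA4, another capillary gene, 30.2 and 5.10 CPM in HT5 and 91.9, 91.4 and 122 CPM in NT5 (log2FC -2.54, adjusted p = 0.0136, not passed). The summed level of the list was 2078 and 1877 CPM in HT5 and 3325, 3721 and 3488 CPM in NT5. In the fit without HT5 replicate 2 the number that fell was 4, and VWF did not pass without HT5 replicate 1, HT5 replicate 2, NT5 replicate 1 or NT5 replicate 3. The part of endothelial content in the changes of growth factor receptors was not tested.

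Genes that set vascular tone fell, 10 of 22 tested, and none rose. ACE, the angiotensin-converting enzyme of lung endothelium, measured 611 and 173 CPM in HT5 and 1568, 1983 and 2121 CPM in NT5 (log2FC -2.27 ± 0.49 (SE), adjusted p = 0.00338). CALCRL and RAMP2, which form the adrenomedullin receptor, measured 301 and 243 CPM in HT5 and 864, 1390 and 1368 CPM in NT5 (log2FC -2.15 ± 0.31 (SE), adjusted p = 0.000321) and 164 and 145 CPM in HT5 and 351, 449 and 503 CPM in NT5 (log2FC -1.50 ± 0.17 (SE), adjusted p = 7.16e-05). The natriuretic peptide receptors NPR1 (log2FC -1.40, adjusted p = 0.000875) and NPR3 (log2FC -1.12, adjusted p = 0.00227), the endothelin-converting enzyme ECE1 (log2FC -0.99, adjusted p = 0.000628), the ligand EDN3 (log2FC -1.14, adjusted p = 0.000456) and the phosphodiesterase PDE5A (log2FC -0.91, adjusted p = 0.00251) fell as well. NOS3, the endothelial nitric oxide synthase, did not pass (log2FC -1.27, adjusted p = 0.0415), with 20.2 and 28.7 CPM in HT5 and 33.5, 58.5 and 85.5 CPM in NT5. EDN1, the vasoconstrictor ligand, measured 6.46 and 52.6 CPM in HT5 and 8.65, 9.67 and 12.2 CPM in NT5, high in HT5 replicate 2 only (log2FC 1.54, adjusted p = 0.0901). With HT5 replicate 2 excluded, 1 member of the list fell.

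Smooth muscle markers fell for 7 of 13 tested, and none rose. MYH11, the smooth muscle myosin, measured 199 and 195 CPM in HT5 and 581, 646 and 435 CPM in NT5 (log2FC -1.49 ± 0.23 (SE), adjusted p = 0.000414), and smoothelin, SMTN, 80.6 and 62.1 CPM in HT5 and 191, 222 and 189 CPM in NT5 (log2FC -1.49 ± 0.18 (SE), adjusted p = 0.000101). ACTA2, smooth muscle alpha-actin, measured 183 and 234 CPM in HT5 and 340, 291 and 281 CPM in NT5 and did not pass (log2FC -0.55, adjusted p = 0.0632). Pericyte markers fell for 2 of 11 tested and none rose, beside 7.84% and 8.04% of all loci. The 2 were COX4I2 (log2FC -1.45, adjusted p = 6.19e-05) and the potassium channel KCNK3 (log2FC -1.90, adjusted p = 0.00561). PDGFRB (log2FC 0.34, adjusted p = 0.263) and CSPG4 (log2FC -0.70, adjusted p = 0.0167) did not pass. When HT5 replicate 2 was left out, the number of smooth muscle markers that fell was 3, and it was 3 or 4 without any other single library. The number of pericyte markers that fell was 1 without NT5 replicate 2 or 3.

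Coagulation and plasminogen genes were the vascular group with more rises than falls, 4 against 1 of 15 tested, beside 8.04% and 7.84% of all loci. THBS1, thrombospondin, measured 1478 and 3285 CPM in HT5 and 499, 396 and 344 CPM in NT5 (log2FC 2.53 ± 0.35 (SE), adjusted p = 0.000277). F3, tissue factor, measured 530 and 910 CPM in HT5 and 201, 238 and 165 CPM in NT5 (log2FC 1.84 ± 0.28 (SE), adjusted p = 0.000451). The protein C receptor PROCR (log2FC 0.97, adjusted p = 0.00652) and VWF also rose, and PROS1, the anticoagulant protein S, fell (log2FC -1.76 ± 0.32 (SE), adjusted p = 0.00127). A2M, alpha-2-macroglobulin, was highest in the macrophage-rich library of each group, with 734 and 180 CPM in HT5 and 467, 32.4 and 14.4 CPM in NT5 (log2FC 1.42, adjusted p = 0.448). The number of coagulation and plasminogen genes that rose was 1 without HT5 replicate 2, with none falling, and 2 without NT5 replicate 1 or without NT5 replicate 3.

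Of 17 tested genes of prostaglandin metabolism 1 rose and 3 fell, beside 8.04% and 7.84% of all loci. PTGS2, the inducible synthase, rose and measured 59.8 and 214 CPM in HT5 and 18.5, 11.8 and 18.5 CPM in NT5 (log2FC 3.07 ± 0.70 (SE), adjusted p = 0.00493), with HT5 replicate 2 far above replicate 1. Beside HPGD, the inactivating enzyme, the prostaglandin transporter gene SLCO2A1 fell (log2FC -0.90 ± 0.23 (SE), adjusted p = 0.00836), as did the receptor gene PTGER3 (log2FC -1.24 ± 0.26 (SE), adjusted p = 0.00317). The constitutive synthase PTGS1 did not pass (log2FC -0.74, adjusted p = 0.0591). With HT5 replicate 2 left out, none of the 17 passed, and without NT5 replicate 2 or 3 1 fell and none rose. A second member rose without HT5 replicate 1.

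Collagen genes fell more often than they rose, 8 against 1 of 34 tested, beside 7.84% and 8.04% of all loci. Their median log2FC was -0.639. COL15A1, a collagen of vascular basement membranes, measured 81.9 and 50.0 CPM in HT5 and 367, 420 and 290 CPM in NT5 (log2FC -2.45 ± 0.30 (SE), adjusted p = 0.000123). COL4A3 (log2FC -1.53 ± 0.25 (SE), adjusted p = 0.00069) and COL4A4 (log2FC -1.48 ± 0.38 (SE), adjusted p = 0.00959), the chains of the alveolar and glomerular basement membrane, fell, whereas COL4A1 and COL4A2 of all basement membranes did not pass, with log2FC -0.18 and -0.21. COL23A1, a transmembrane collagen, measured 30.6 and 16 CPM in HT5 and 86.3, 74.6 and 115 CPM in NT5 (log2FC -1.99 ± 0.37 (SE), adjusted p = 0.00159). Of the fibrillar collagens COL1A2 fell (log2FC -0.80 ± 0.17 (SE), adjusted p = 0.00387) and COL1A1 did not pass (log2FC -0.51, adjusted p = 0.0243). The member that rose was COL12A1 (log2FC 0.99 ± 0.23 (SE), adjusted p = 0.00612). Without NT5 replicate 2 or 3 the number that fell was 3, and COL12A1 did not pass in those fits or without HT5 replicate 2.

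Of 21 tested elastic fibre genes 8 fell and none rose. ELN, the elastin gene, measured 2242 and 1827 CPM in HT5 and 3599, 3581 and 4040 CPM in NT5 (log2FC -0.88 ± 0.18 (SE), adjusted p = 0.00308). FBLN5, which links elastin to cells, measured 155 and 101 CPM in HT5 and 307, 371 and 282 CPM in NT5 (log2FC -1.32 ± 0.18 (SE), adjusted p = 0.000199). MFAP4 had 501 and 302 CPM in HT5 and 1288, 1360 and 1219 CPM in NT5 (log2FC -1.68 ± 0.21 (SE), adjusted p = 0.000125). LTBP3, LTBP4, EFEMP1 and FBLN2 fell with log2FC from -1.21 to -1.80, together with the locus of EMILIN1 and 3 further genes (log2FC -0.48, adjusted p = 0.00279). The crosslinking enzyme genes LOX (log2FC -0.64, adjusted p = 0.03) and LOXL1 (log2FC -0.75, adjusted p = 0.0154) and the fibrillin gene FBN1 (log2FC 0.09, adjusted p = 0.686) did not pass. At ELN, FBLN5 and MFAP4 both HT5 libraries were below each NT5 library.

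Metalloproteinases and their inhibitors fell for 7 of 26 tested and 1 rose, beside 7.84% and 8.04% of all loci. The rise was MMP10, whose call depends on single libraries as given above. MMP11 measured 16.5 and 9.14 CPM in HT5 and 80.0, 44.5 and 57.2 CPM in NT5 (log2FC -2.25 ± 0.49 (SE), adjusted p = 0.00395), and ADAMTS8 20.4 and 9.73 CPM in HT5 and 59.9, 65.0 and 44.1 CPM in NT5 (log2FC -1.91 ± 0.38 (SE), adjusted p = 0.00219). TIMP3, the matrix-bound inhibitor, fell (log2FC -1.09 ± 0.19 (SE), adjusted p = 0.000936), and TIMP1 did not pass (log2FC 1.11, adjusted p = 0.0944). MMP2, the main gelatinase of the lung mesenchyme, measured 1369 and 1691 CPM in HT5 and 1562, 1202 and 1395 CPM in NT5 and did not pass (log2FC 0.14, adjusted p = 0.534). MMP9 was high in the macrophage-rich library of each group, with 132 and 24.9 CPM in HT5 and 45.8, 4.24 and 13.5 CPM in NT5 (log2FC 1.88, adjusted p = 0.0628). Without HT5 replicate 2, 1 collagen, 3 elastic fibre genes and 1 metalloproteinase or inhibitor fell, and without NT5 replicate 3 the number of elastic fibre genes was 5. A second metalloproteinase or inhibitor rose without NT5 replicate 1.

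Of 19 tested FGF genes 1 rose and 4 fell, and the single rise was no larger a share than that over all loci. FGF7, the keratinocyte growth factor, rose, with 28.1 and 33.8 CPM in HT5 and 9.38, 8.83 and 10.1 CPM in NT5 (log2FC 1.71 ± 0.33 (SE), adjusted p = 0.00182). FGF1 fell, with 19.5 and 14.7 CPM in HT5 and 43.2, 57.6 and 62.8 CPM in NT5 (log2FC -1.67 ± 0.28 (SE), adjusted p = 0.000752), and so did FGF10, which drives branching and lipofibroblast formation (log2FC -0.78 ± 0.19 (SE), adjusted p = 0.00761), and the receptors FGFR1 (log2FC -1.26 ± 0.14 (SE), adjusted p = 6.87e-05) and FGFR4 (log2FC -1.60 ± 0.34 (SE), adjusted p = 0.00299). Of 18 tested hedgehog genes 8 fell and none rose. GLI1, the transcriptional readout of the pathway, measured 6.76 and 7.24 CPM in HT5 and 18.2, 23.9 and 25.6 CPM in NT5 (log2FC -1.69 ± 0.26 (SE), adjusted p = 0.000478), and the receptor PTCH1 30.6 and 33.9 CPM in HT5 and 53.2, 106 and 92.0 CPM in NT5 (log2FC -1.38 ± 0.28 (SE), adjusted p = 0.00235). The mesenchymal targets FOXF1 (log2FC -1.25, adjusted p = 0.000183) and FOXF2 (log2FC -1.91, adjusted p = 3.92e-05) fell as well, while the ligand SHH (log2FC -0.71, adjusted p = 0.121) did not pass.

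BMP genes passed in few cases, 1 rise and 3 falls in 28 tested, and the falls were near the share over all loci. CHRD, the BMP antagonist chordin, was the rise and measured 36.6 and 67.1 CPM in HT5 and 5.26, 4.31 and 4.63 CPM in NT5 (log2FC 3.45 ± 0.29 (SE), adjusted p = 1.02e-05). BMPR2, the receptor whose loss causes pulmonary hypertension, measured 301 and 223 CPM in HT5 and 485, 669 and 564 CPM in NT5 (log2FC -1.13 ± 0.28 (SE), adjusted p = 0.00793). ACVRL1 (log2FC -0.60, adjusted p = 0.00648) and BMP7 (log2FC -0.83, adjusted p = 0.00424) were the other falls. None of these 3 passed without HT5 replicate 2, NT5 replicate 2 or NT5 replicate 3, and the number that fell was 1 without HT5 replicate 1. The target ID1 measured 180 and 173 CPM in HT5 and 122, 171 and 178 CPM in NT5 and did not pass (log2FC 0.17, adjusted p = 0.49).

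Fibroblast markers fell for 9 of 16 tested, with a median log2FC of -1.07. NPNT, nephronectin, measured 434 and 223 CPM in HT5 and 1228, 1516 and 1637 CPM in NT5 (log2FC -2.15 ± 0.40 (SE), adjusted p = 0.00155). TBX4 (log2FC -1.13, adjusted p = 0.00209) and TBX5 (log2FC -1.36, adjusted p = 0.00225), the identity factors of lung mesenchyme, fell, whereas TCF21 (log2FC -1.02, adjusted p = 0.013), DCN (log2FC 0.23, adjusted p = 0.701) and LUM (log2FC 0.68, adjusted p = 0.121) did not pass. The summed level of the 16 markers was 2383 and 1390 CPM in HT5 and 4680, 5306 and 5283 CPM in NT5. In the fit without HT5 replicate 2, 1 fibroblast marker, 2 hedgehog genes and 1 FGF gene fell, and FGF7 did not pass. Without NT5 replicate 2 the number was 5 for fibroblast markers and 4 for hedgehog genes, and without NT5 replicate 3 it was 2 for FGF genes.

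**Figure D4:**
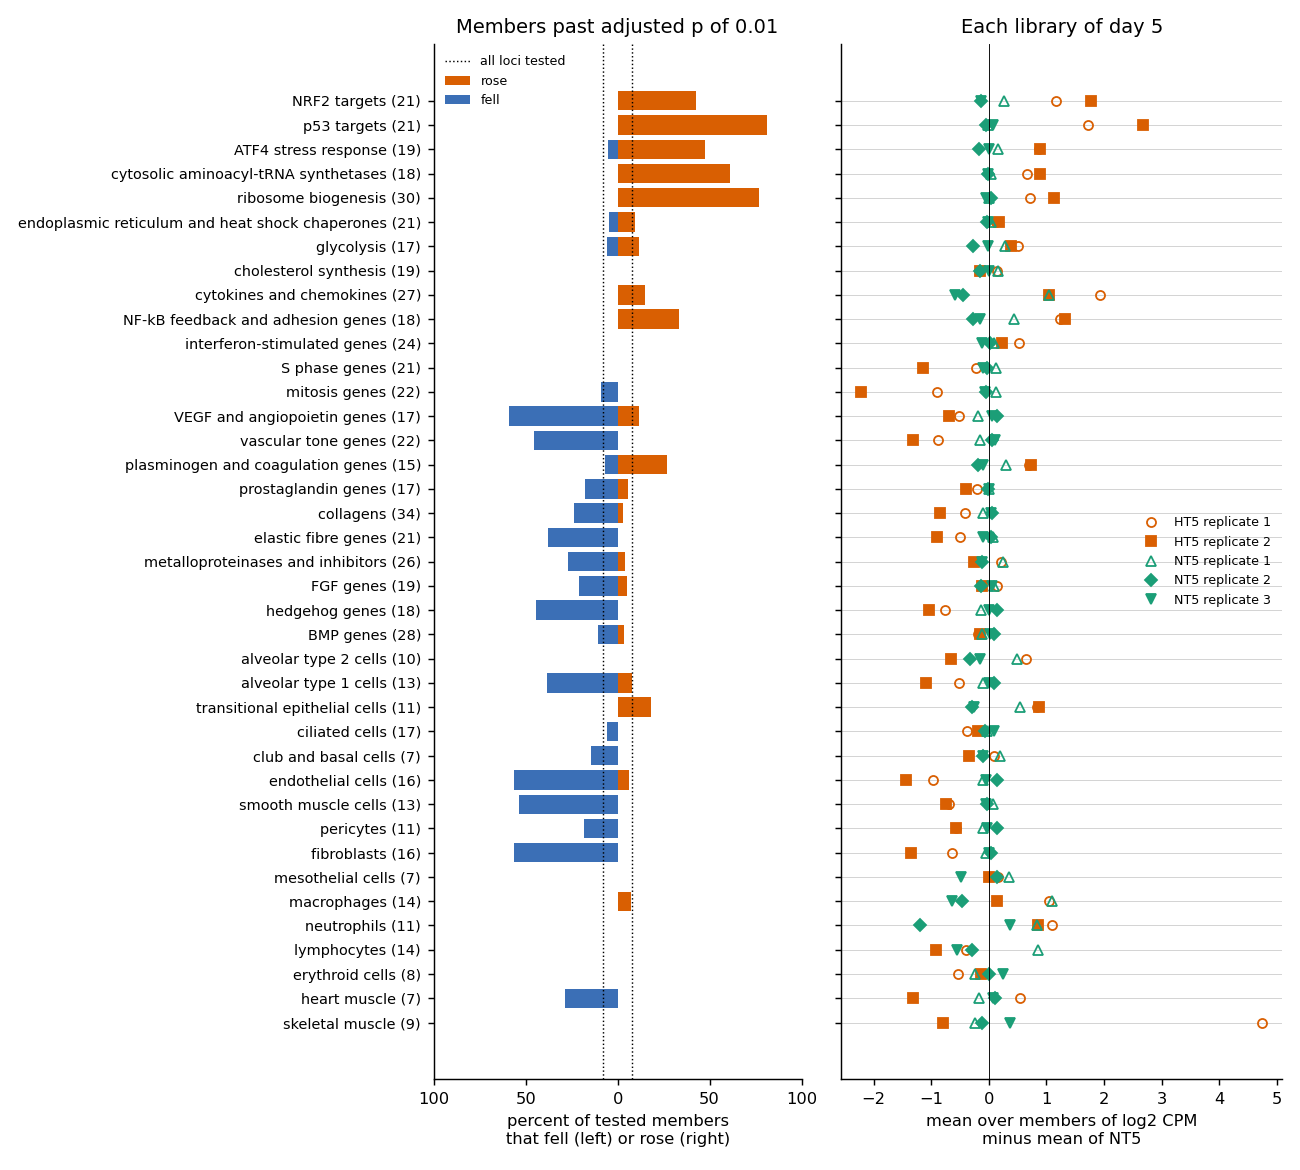
Left, the percent of tested members of each gene list (number tested in brackets) that fell or rose at adjusted p under 0.01, with the share over all loci dotted (8.04% rose, 7.84% fell). Right, the mean deviation of the list's members from the NT5 mean in each of the 5 libraries, in log2 CPM; HT5 replicate 2 lies farther from 0 than replicate 1 for p53, ribosome, mitosis and endothelial genes, and NT5 replicate 1 stands apart for macrophage and cytokine genes.

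Of 13 tested alveolar type 1 markers 5 fell and 1 rose, beside 7.84% and 8.04% of all loci. CAV1, caveolin, measured 1090 and 576 CPM in HT5 and 1759, 2045 and 2243 CPM in NT5 (log2FC -1.27 ± 0.25 (SE), adjusted p = 0.00221), and EMP2 589 and 276 CPM in HT5 and 796, 1030 and 1369 CPM in NT5 (log2FC -1.30 ± 0.32 (SE), adjusted p = 0.00772). AGER, whose locus also holds PBX2, measured 2299 and 1006 CPM in HT5 and 3578, 4091 and 4409 CPM in NT5 (log2FC -1.28 ± 0.32 (SE), adjusted p = 0.00808), while HOPX (log2FC -0.02, adjusted p = 0.949) and PDPN (log2FC 0.15, adjusted p = 0.51) did not pass. ICAM1, listed here and among the adhesion genes, was the rise. With HT5 replicate 2 excluded, none of the type 1 markers fell, and the number was 3 without NT5 replicate 1 and 1 without NT5 replicate 2 or 3. ICAM1 did not pass without either HT5 library, NT5 replicate 2 or NT5 replicate 3. Caveolin, CLIC5 and EMP2 are also expressed by endothelium, and the part of either cell type was not tested.

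None of 10 tested alveolar type 2 markers passed, and the median log2FC was 0.0821. HT5 replicate 1 and NT5 replicate 1 had the highest mean deviations of this list, 0.642 and 0.484 log2 CPM. ABCA3, the lipid transporter of lamellar bodies, measured 800 and 280 CPM in HT5 and 706, 397 and 437 CPM in NT5 (log2FC 0.07, adjusted p = 0.915). SFTPA1 measured 10652 and 4914 CPM in HT5 and 6923, 2431 and 2234 CPM in NT5 (log2FC 1.01, adjusted p = 0.0816). Of 11 tested genes of transitional epithelium, the state between type 2 and type 1 cells, 2 rose, beside 8.04% of all loci. They were ITGB6 (log2FC 1.24 ± 0.27 (SE), adjusted p = 0.00371) and LGALS3 (log2FC 0.97 ± 0.19 (SE), adjusted p = 0.00222). KRT18 (log2FC 0.51, adjusted p = 0.166), KRT7 (log2FC 0.46, adjusted p = 0.16) and AREG (log2FC 3.69, adjusted p = 0.0178) did not pass. None of the list rose without HT5 replicate 1, HT5 replicate 2, NT5 replicate 2 or NT5 replicate 3.

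Among 17 ciliated cell markers the locus of TPPP3 and ZDHHC1 fell (log2FC -1.02, adjusted p = 0.00339), and the master factor FOXJ1 measured 29.7 and 41.1 CPM in HT5 and 40.2, 36.2 and 50.1 CPM in NT5 (log2FC -0.25, adjusted p = 0.375). Among 7 club and basal cell markers CYP2B6 fell (log2FC -1.15, adjusted p = 0.00983). None of 7 mesothelial and none of 8 erythroid markers passed. Of 7 heart muscle markers RYR2 (log2FC -1.86, adjusted p = 0.00182) and MYBPC3 (log2FC -1.04, adjusted p = 0.00553) fell, and the defining marker TNNT2 measured 3.45 and 0.356 CPM in HT5 and 2.00, 1.06 and 1.2 CPM in NT5. Over all loci 7.84% fell, beside 1 of 17 ciliated, 1 of 7 club and basal and 2 of 7 heart muscle markers. None of these 4 falls passed without HT5 replicate 2. TPPP3, CYP2B6 and MYBPC3 were also lost without NT5 replicate 3, CYP2B6 and MYBPC3 without NT5 replicate 2, CYP2B6 without NT5 replicate 1, and RYR2 and MYBPC3 without HT5 replicate 1.

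The study singled out 13 genes on these samples, so their changes are not independent evidence. Of these 10 passed on day 5: EDA2R, CCL2, CCL7, PTGS2 and MDM2 rose, and MMP11, COL23A1, ACE, FGF1 and VEGFD fell. IL1R2 and RPP25 were among those that did not pass, as given above. All 13 had the sign on day 7 that they had on day 5, with day 7 log2FC of 2.82 and 2.62 for these 2 genes.

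Day 5 lay between days 3 and 7 in the number of loci called, in separate animals. The counts were 6 at the earliest day, 197 at day 5 and 586 at the latest. Day 5 had fewer hyperoxia libraries than days 3 and 7, so these counts were not reached at equal power. Of the 97 loci upregulated on day 5, 83 had a positive log2FC on day 3 and 97 on day 7, with medians of 0.684 and 2.81 beside 2.80 on day 5, the day on which they were chosen. Of the 100 downregulated loci 87 were negative on day 3 and 99 on day 7, with medians of -0.563 and -2.80 beside -2.49. The share of all loci that kept their sign between days was not computed. An adjusted p under 0.01 was reached on day 3 by 6 of the upregulated and by 0 of the downregulated loci. On day 7 it was reached by 82 and 87. Over all 12628 loci, 23 passed on day 3 and 4166 on day 7. The 3 days share no libraries.

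The difference between days was tested directly. The contrast of the day 5 response with that of day 3 passed at 0 of 12628 loci in edgeR, with 2523 at an unadjusted p under 0.05, and at 298 in DESeq2. EDA2R had the lowest p of this contrast in edgeR: its log2FC was 2.04 ± 0.26 on day 3 and 4.97 ± 0.29 on day 5, and the adjusted p of the difference was 0.0116. CD300LG had 0.28 ± 0.32 on day 3 and -3.51 ± 0.44 on day 5 (adjusted p of the difference 0.0127), and CDKN1A 2.54 ± 0.33 and 5.38 ± 0.39 (0.018). With DESeq2 these 3 genes passed, and without HT5 replicate 1 174 loci passed in edgeR. The contrast of day 7 with day 5 passed at 0 loci in edgeR, with 1078 at an unadjusted p under 0.05, and at 8 in DESeq2, among them EDN3, whose log2FC was -1.14 ± 0.18 on day 5 and -2.68 ± 0.16 on day 7 (adjusted p 0.0919 in edgeR).

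**Figure D5:**
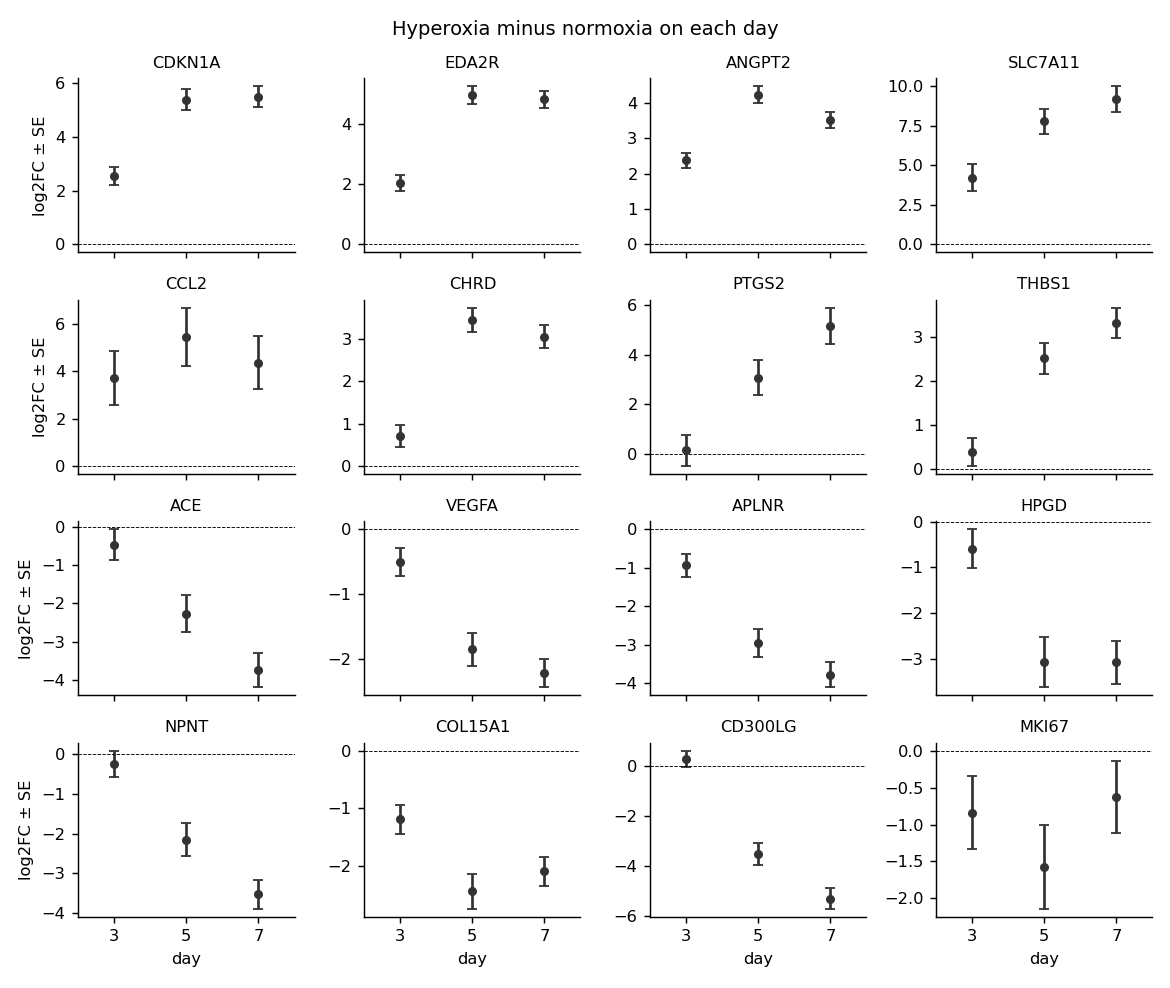
Log2FC of hyperoxia against normoxia with its standard error on days 3, 5 and 7 for 16 of the genes described; each panel has its own vertical scale. CDKN1A and EDA2R were near their day 7 values on day 5, ACE, NPNT and CD300LG were lower on day 7, and MKI67 was lowest on day 5, differences between days that did not pass in edgeR.

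Genes of the day 5 response differed in their day 3 values. The log2FC of CHRD was 0.70 ± 0.26, 3.45 ± 0.29 and 3.06 ± 0.27 on days 3, 5 and 7. PTGS2 was at 0.14 ± 0.63, 3.07 ± 0.70 and 5.16 ± 0.73, and THBS1 at 0.40 ± 0.32, 2.53 ± 0.35 and 3.33 ± 0.34. CCL7, ANGPT2, EDA2R and CDKN1A, in contrast, passed already on day 3, with log2FC of 4.12, 2.38, 2.04 and 2.54. The median log2FC of mitosis genes was -0.761, -1.42 and -0.272 on these days, a difference between days that was not tested for the list.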

How the data were processed

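Lungs of 17 animals were profiled by RNA-seq. The authors deposited 1 table of raw counts per gene with no normalization. The labels name FastQC, STAR 2.7.10a and the build OryCun2.0, and locus identifiers have the form written by StringTie. The counting program is not given in the sources used here. The 13827 lines were reduced to 13313 loci, since 948 lines at 434 loci repeat shared counts. 2625 lines carry only the name of the human homolog. Where a name had several loci, the one with most counts was used, except for loci named for their own values.

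Counts of all 17 libraries were fitted with edgeR 4.0.16 (R 4.3.3) by the quasi-likelihood test with 6 group means, TMM factors and filterByExpr, which kept 12628 loci. HT5 was contrasted with NT5, and differences between days were contrasts of the same fit. Adjustment was by Benjamini-Hochberg over all loci. The standard error was the log2FC divided by the square root of F, the prior count was 0.125, and the floor was 3 counts per library. Loci passed at an adjusted p under 0.01 and were called when the log2FC was also beyond 2. Alternatives included DESeq2 1.42.0, RLE factors, no filter, a replicate block and leaving out single libraries. On simulated counts a log2FC of 3 was placed at 200 of 12490 loci, all well expressed, and 192 (96%) were recovered. HT5 was given the same spread as the other groups there. Recovery of smaller changes, of weakly expressed loci or with a wider spread in HT5 was not tested.

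Members and gene lists were chosen with earlier results of these data known. Named genes were the 12 largest changes in each direction among called loci with an average log2 CPM over 1, in each list the first 2 members and up to 3 that rose and 3 that fell with the largest changes, the 13 genes the study singled out, the 10 loci that differed most between the HT5 libraries, and 6 chosen after their values were seen (SLCO1A2, SEMA3G, GNG11, GFM2, RYR3 and TMEM100). The 12 largest changes were also required to have both HT5 libraries on 1 side of all 3 NT5 libraries. Loci past the difference tests would have been named, but none passed. Other members that passed or did not pass, and CD8A, were named after their values were seen. Some list members are not reported here.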

Additional observations from a re-analysis of the deposited data

How the results depend on the processing

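The number of called loci was 199 with RLE factors, 194 with no filter on low counts, 208 with every annotated gene as a row, 190 with a prior count of 2 and 255 with DESeq2, of which 189 were among the 197. With a minimum log2FC of 1 it was 973 (417 upregulated, 556 downregulated). Fitted on the 5 libraries of day 5 alone, 11 loci were called and 12 passed, and in that fit the residual degrees of freedom come from 5 libraries only. Leaving out 1 library at a time gave 45 to 360 called loci, with 45 (31 upregulated, 14 downregulated) without HT5 replicate 2, 360 (133 and 227) without HT5 replicate 1, and 238, 144 and 138 without NT5 replicate 1, 2 and 3. The number of loci that passed was 2917 with DESeq2 and ranged from 207 (without HT5 replicate 2) to 2199 (without HT5 replicate 1), with 1079 without NT5 replicate 2 and 1083 without NT5 replicate 3; the cause was not tested. Where HT5 was left with 1 library, that library was assumed to vary like the other groups.

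The difference between the responses of days 5 and 3 passed at 298 loci with DESeq2, at 1 (EDA2R) with the replicate block, and at 0 to 174 loci when 1 library was left out, the 174 being without HT5 replicate 1. The difference between days 7 and 5 passed at 8 loci with DESeq2 and at 0 to 4 when 1 library was left out, the 4 being without HT5 replicate 2. The remaining alternatives gave 0 for both.

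Replicate numbers of day 5 deviated together with correlations of 0.265 and 0.14 in the 2 pairs available, and the labels do not say what a number marks, so pairing was not assumed. Correlations were 0.167, 0.129 and 0.201 on day 3 and 0.172, 0.109 and 0.0677 on day 7. The replicate block called 206 loci, among them 88 of the 97 upregulated and 84 of the 100 downregulated loci, and passed 1965. MMP10, PGF, HSPB1, PFKL and MYBPC3 did not pass with it. Of the lists that lost members, 8 ATF4 genes and 1 VEGF system gene rose, and 3 alveolar type 1 markers, 6 collagens, 6 smooth muscle markers, 1 heart muscle marker and 1 mitosis gene fell. The other counts of members that rose or fell stayed or grew by 1 or 2, apart from those the named genes changed.

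Of 2888 values of named genes under the alternatives, 2415 kept their direction and side of the threshold, 408 no longer passed, 29 passed only there and 36 changed sign. Sign changes were at loci that did not pass. The log2FC of HOPX was 0.00 in the fit of day 5 alone, and that of SFTPC was -0.05 with the replicate block. With 1 library left out the log2FC ranged for ABCA3 from -0.87 to 0.64, ACTA1 from -0.14 to 5.87, ARCN1 from -9.45 to 0.18, C1QC from -0.75 to 1.38, CD3E from -1.57 to 0.49, CKM from -0.22 to 4.64, CXCL9 from -5.41 to 3.34, DCN from -0.79 to 0.82, EDN1 from -0.66 to 2.37, FBN1 from -0.03 to 0.20, HOPX from -0.09 to 0.06, MMP2 from -0.02 to 0.29, MRC1 from -1.54 to 0.29, MYH1 from -5.18 to 6.19, MYH7 from -3.96 to 4.59, MYH8 from -5.26 to 5.38, MYL1 from -3.83 to 8.29, PDGFRB from -0.10 to 0.68, PLK2 from -0.15 to 0.24, SESN1 from -0.30 to 0.00, SFTPC from -0.92 to 0.68, TKT from -0.39 to 0.02, TNNT2 from -1.97 to 1.28 and TNNT3 from -1.66 to 3.91.

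With 0 counts in the NT5 libraries, the depth allows only a lower bound for the fold of MMP10. A group was at 0 in every library at 2 upregulated and 1 downregulated called loci. At 8 upregulated and 14 downregulated called loci 1 group was at or below the floor of 3 counts in every library. The average was under 1 log2 CPM at 16 and 22 of them. An effect of depth on other calls was not tested.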
